A study of Rattus norvegicus with 36 samples.

Results

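Neurotensin (Nts, ENSRNOG00000004179) is 1 of the 31546 Ensembl genes counted in the ventral striatum of rats given saline or cocaine, and it was followed here in each of the 36 libraries. It was chosen from measured values of the same libraries, namely its lower level in Coc–Coc than in Sal–Coc. The other comparisons share pools with that one. The levels and fold changes of Nts are therefore given as a description, with no test.

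Neurotensin is a short neuropeptide that is cut, together with neuromedin N, from a common precursor encoded by Nts. It is released by neurons and acts on the G protein-coupled receptors Ntsr1 and Ntsr2, while sortilin (Sort1) binds and sorts it. In the striatum, Nts is made by a part of the projection neurons, is known to be induced by drugs that act on dopamine transmission, and modulates the response of these cells to dopamine.

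The rats were 8-week-old male Sprague-Dawley rats, injected intraperitoneally 3 times daily over 5 days. All 15 injections were saline in Sal–Sal and cocaine in Coc–Coc, at 20 mg/kg each, while Sal–Coc rats were switched from saline to cocaine for the 3 injections of the final day. Nucleus accumbens was dissected 24 h later, so no group shows the first hours after the drug. The methods give 12 saline injections before the cocaine of the Sal–Coc rats and pools of 2 rats per library, whereas the labels give 13 injections and a single rat. The label for phenotype reads saline in Sal–Coc and vulnerable in Coc–Coc, whose description reads tolerant, and samples were grouped by description and treatment. Each group had 3 pools, and each pool was sequenced as 4 technical replicates.

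Totals ranged from 36372166 to 42449841 counts per pool. In a principal component analysis of log2 values, Sal–Sal pool 3 and Sal–Coc pool 1 stood apart from the rest on the second component, which held 23.8% of the variance, at 34.0 and 33.2, while the other 7 pools lay between -17.3 and 2.28. Some of the results that rest on these pools are also given without both. The tables list identifiers without symbols, and 1506 symbols were joined to identifiers through the published lists of changed genes. Of 114 different genes in lists on the neurotensin system, its regulators, other neuropeptides and cell type markers, 8 had an identifier in this way. None of the 14 markers of striatal projection neurons was among them, so the labelled tissue was not checked against its markers here.

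The promoter of Nts is shown because it carries binding motifs for families of transcription factors that respond to neuronal activity and cAMP, some members of which were measured below. It is the 250 bases before the start of the gene from RefSeq (build GRCr8, chr7:39460889-39461138, minus strand), a later build than that of the counts. Capitals mark the motifs found by search on both strands, an AP-1 motif (TGANTCA), a CRE-type motif with 1 free base (TGACNTCA) and a run of TATATA, whose matches overlap.
Nts: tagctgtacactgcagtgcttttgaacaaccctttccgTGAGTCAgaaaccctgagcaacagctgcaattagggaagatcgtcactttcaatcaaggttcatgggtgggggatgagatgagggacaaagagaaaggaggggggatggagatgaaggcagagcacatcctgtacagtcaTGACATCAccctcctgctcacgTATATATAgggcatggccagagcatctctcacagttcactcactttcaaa
The AP-1 motif lay 212 to 206 bases before the start and read TGAGTCA, and 6.34% of 33469 promoter windows of the same length held such a motif. The CRE-type motif lay 72 to 65 bases before the start and read TGACATCA, and 8.88% of the windows held one. The free base was allowed after the sequence had been seen, and the exact CRE (TGACGTCA), held by 1.59% of the windows, had 0 matches in that of Nts. The TATATA run spanned bases 50 to 43 before the start, and 5.45% of the windows held one. A match is a description of the letters and was not tested as a binding site.

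Nts was lowest in Coc–Coc, intermediate in Sal–Sal and highest in Sal–Coc. In CPM, the count as a rate of the pool's total after scaling by its TMM factor, the Sal–Sal pools were at 46.5, 47.4 and 35.3 CPM, from 1577, 1919 and 1481 counts. The Sal–Coc pools were at 53.2, 45.8 and 53.9 CPM, from 2271, 1722 and 1945 counts. The Coc–Coc pools were at 33.0, 29.4 and 31.7 CPM, from 1231, 1268 and 1313 counts. All 3 Coc–Coc pools thus lay below every other pool, whereas Sal–Coc pool 2 lay below both Sal–Sal pool 1 and Sal–Sal pool 2. In RNA of whole tissue, fewer Nts-expressing cells and less Nts RNA per cell cannot be told apart.

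**Figure D1:**
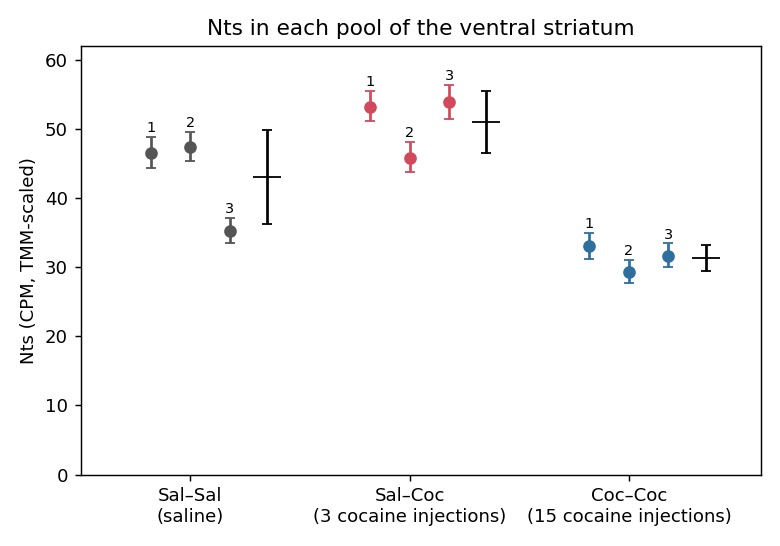
Nts level in each pool (vertical axis, TMM-scaled CPM) by group (horizontal axis). Numbered points are pools with 95% Poisson intervals, which cover counting error only, and the black bar is the mean ± SD of 3 pools. The Coc–Coc pools sit between 29.4 and 33.0 CPM, below all others, and Sal–Sal pool 3 at 35.3 CPM is the nearest to them.

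Sal–Sal had a mean level of 43.1 ± 6.79 CPM (SD over 3 pools), Sal–Coc of 51.0 ± 4.46 CPM and Coc–Coc of 31.4 ± 1.85 CPM. Relative to the mean, the SD was 15.8% for Sal–Sal, 8.75% for Sal–Coc and 5.89% for Coc–Coc. Counting error alone would give 2.46%, 2.25% and 2.81%, so the spread between pools was larger than counting error in each group. The 4 technical replicates of a pool held between 291 and 592 Nts counts each and differed little from one another beside sampling noise, which gives a chi-square of about 1 per degree of freedom. This ratio was 0.622 over the 9 pools together (27 degrees of freedom) and above 1 in 3 of them, Sal–Sal pool 3 (1.06), Sal–Coc pool 1 (1.55) and Coc–Coc pool 2 (1.36). Between the pools of a group the same measure was 43.6 for Sal–Sal, 14.8 for Sal–Coc and 4.43 for Coc–Coc.

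**Figure D2:**
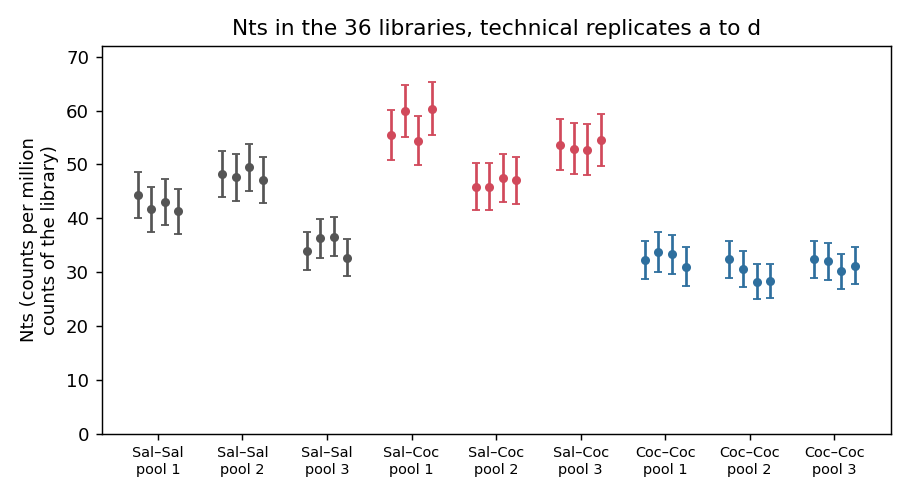
Nts in the 36 libraries (vertical axis, CPM of the library total, without TMM scaling), with the 4 technical replicates of each pool side by side (horizontal axis) and bars of approximate 95% counting intervals from the square root of the count. The replicates of a pool overlap, while Sal–Sal pool 3 lies below the other Sal–Sal pools in all 4 replicates.

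The Coc–Coc vs. Sal–Coc comparison asks how a repeated cocaine binge differs from a single day of cocaine, and it is the one by which Nts was chosen. The log2 fold change was -0.70 (standard error 0.12), a change of -38.5% in Coc–Coc. The nearest pools of both groups were 12.8 CPM apart, more than the whole range within either group. Pools of these groups did not overlap for 17.2% of the 15641 genes tested, and 596 genes had a larger absolute log2 fold change than Nts, whose place among them follows from its choice. No gene had an adjusted p-value under 0.05 in this comparison (quasi-likelihood test of edgeR, Benjamini-Hochberg adjustment, 0%), 1453 (9.29%) had an unadjusted p-value under 0.05, and DESeq2 called 150 genes. Leaving out each pool in turn left the log2 fold change of Nts between -0.77 and -0.66, and without Sal–Sal pool 3 and Sal–Coc pool 1 it was -0.67.

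In Coc–Coc vs. Sal–Sal, which sets 5 days of cocaine against saline, the log2 fold change of Nts was -0.46 (standard error 0.12), a change of -27.2% in Coc–Coc. The groups did not overlap, as for 36.7% of all genes tested, but the gap was 2.24 CPM, between Sal–Sal pool 3 and Coc–Coc pool 1. The 95% Poisson intervals of these 2 pools, 33.5 to 37.1 CPM and 31.2 to 34.9 CPM, overlapped. Without Sal–Sal pool 3 the log2 fold change was -0.58, and over all fits that left out 1 pool it lay between -0.58 and -0.38.

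In Sal–Coc vs. Sal–Sal, which sets a single day of cocaine against saline, the log2 fold change of Nts was 0.24 (standard error 0.12), that is 18.4% higher in Sal–Coc. The groups overlapped, and in 7 of the 9 pairs of pools the Sal–Coc pool was the higher. The difference in means, 7.91 CPM with a standard error of 4.69, was about the size of the spread within Sal–Sal. It rested largely on Sal–Sal pool 3, and without that pool the log2 fold change was 0.11. Without Sal–Coc pool 1 as well it was 0.09. The order of Sal–Sal and Sal–Coc was therefore not beyond their spread. All Coc–Coc pools lay below both, but Nts was chosen for its lower level there than in Sal–Coc.

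**Figure D3:**
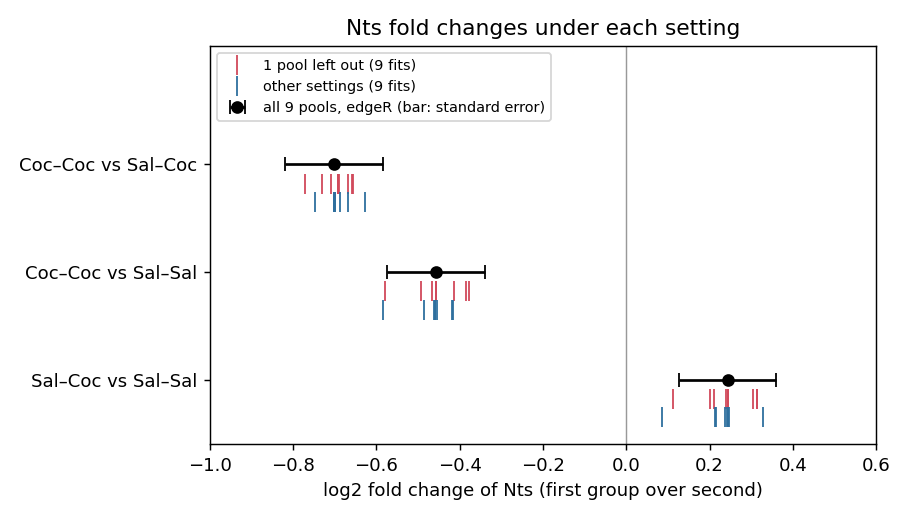
Log2 fold change of Nts (horizontal axis, first group over second) in the 3 comparisons (vertical axis). Black points are the fits to all 9 pools with standard errors, red ticks are the 9 fits without 1 pool and blue ticks are 9 fits with another normalization, filter, tool or set of samples. Each comparison keeps its sign in every fit shown, and Sal–Coc vs. Sal–Sal comes nearest to 0, at 0.09.

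Of 18 genes of the neurotensin system (4 receptors and sorting receptors, 8 enzymes and helpers of precursor processing and 6 peptidases that degrade the peptides), 2 had an identifier and are described. Both had one only because they were published as changed in Sal–Coc vs. Sal–Sal, so their calls there are not independent evidence and no share of the system can be given. The other genes, among them Ntsr1, Ntsr2 and Sort1, were not analysed here.

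Cpe encodes carboxypeptidase E, which trims basic residues from peptides cut out of precursors such as that of neurotensin. It was at 2047, 1831 and 1618 CPM in the Sal–Sal pools, at 1373, 1403 and 1229 CPM in Sal–Coc and at 1824, 1492 and 1449 CPM in Coc–Coc. All Sal–Coc pools were thus the lowest of the 9. Cpe fell in Sal–Coc vs. Sal–Sal (log2 fold change -0.46, standard error 0.13, edgeR adjusted p = 0.0391), in a comparison in which 16.4% of genes were called, 10.6% as higher and 5.86% as lower. The call was lost without any single one of 7 pools, all but Sal–Sal pool 3 and Coc–Coc pool 1, with adjusted p-values up to 0.142 in the edgeR fits, and over the other settings the adjusted p lay between 0.00218 and 0.0669. The log2 fold change was -0.21 in Coc–Coc vs. Sal–Sal (edgeR adjusted p = 0.307), where 10.9% of genes were called at an adjusted p under 0.05, 7.13% as higher and 3.75% as lower, and 30.1% had an unadjusted p under 0.05, and 0.25 in Coc–Coc vs. Sal–Coc (edgeR adjusted p = 0.562). Leaving out 1 pool moved the former to between -0.31 (without Coc–Coc pool 1) and -0.10 (without Sal–Sal pool 1), and the latter to between 0.15 (without Coc–Coc pool 1) and 0.31, and neither was called in any of these fits.

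Anpep encodes aminopeptidase N, a membrane peptidase able to degrade neuromedin N. Its counts were low, with 26, 35 and 49 in the Sal–Sal pools, 80, 84 and 77 in Sal–Coc and 44, 52 and 73 in Coc–Coc. The levels spanned 0.77 to 1.17 CPM for Sal–Sal, 1.18 to 1.76 CPM for Coc–Coc and 1.88 to 2.24 CPM for Sal–Coc, with no overlap between groups. The nearest Sal–Sal and Coc–Coc pools, at 1.17 and 1.18 CPM, held 49 and 44 counts. Separation of pools was common, at 36.1% of all genes tested in Sal–Coc vs. Sal–Sal. Anpep rose in Sal–Coc vs. Sal–Sal (log2 fold change 1.15, standard error 0.24, edgeR adjusted p = 0.0148). The adjusted p became 0.0614 without Sal–Sal pool 1 and 0.0535 without Sal–Coc pool 2. The log2 fold change was 0.56 in Coc–Coc vs. Sal–Sal (edgeR adjusted p = 0.16) and -0.59 in Coc–Coc vs. Sal–Coc (edgeR adjusted p = 0.501). Without Coc–Coc pool 3 the former was 0.35 and the latter -0.80, and neither was called in any fit without 1 pool. Aminopeptidase N is also made by cells of blood vessels. Flt1, a receptor of endothelial cells and the only gene with an identifier among 4 markers of endothelium and blood, averaged 24.6 ± 4.12 CPM (SD over 3 pools) for Sal–Sal, 35.7 ± 2.22 CPM for Sal–Coc and 32.5 ± 6.43 CPM for Coc–Coc. Flt1 rose in Sal–Coc vs. Sal–Sal (log2 fold change 0.54, edgeR adjusted p = 0.0433), where 10.6% of all genes tested were called higher. It had an identifier only because it was published as changed, so this call is not independent evidence. The call remained in 2 of the 9 fits without 1 pool (those without Coc–Coc pool 1 or 2). It was lost without the 2 pools that stand apart (edgeR adjusted p = 0.0925). The part of Flt1 in the change of Anpep was not tested.

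Among 11 transcription factors of the AP-1 and CREB families and the glucocorticoid receptor, which act on promoters such as that of Nts, 4 had an identifier, again only because they were published as changed. In Sal–Coc vs. Sal–Sal, 3 of the 4 fell and 1 rose, beside 5.86% and 10.6% of all genes tested, and in Coc–Coc vs. Sal–Sal 1 fell and 1 rose, beside 3.75% and 7.13%. Because publication as changed put these 4 genes within reach, nothing about the list is read from the counts.

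Jund encodes a subunit of AP-1 that is present in unstimulated cells. It was at 69.3, 68.0 and 62.8 CPM in Sal–Sal, at 30.9, 33.9 and 33.8 CPM in Sal–Coc and at 48.6, 32.3 and 29.1 CPM in Coc–Coc. All cocaine pools lay below all saline pools, and Coc–Coc pool 1 lay above the other cocaine pools. The log2 fold change was -1.02 in Sal–Coc vs. Sal–Sal (standard error 0.16, edgeR adjusted p = 0.0056) and -0.86 in Coc–Coc vs. Sal–Sal (standard error 0.16, edgeR adjusted p = 0.0186). The former call held without each pool. The latter was lost without Sal–Sal pool 1, Coc–Coc pool 2 or Coc–Coc pool 3, with adjusted p-values up to 0.0756 in the edgeR fits. Without Coc–Coc pool 3, no gene at all was called in Coc–Coc vs. Sal–Sal, so that loss is not particular to Jund.

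Jun, the AP-1 subunit induced by stimulation, was at 41.2, 40.7 and 39.6 CPM in Sal–Sal, at 26.3, 23.0 and 29.2 CPM in Sal–Coc and at 42.0, 30.3 and 26.8 CPM in Coc–Coc. It fell in Sal–Coc vs. Sal–Sal (log2 fold change -0.63, standard error 0.15, edgeR adjusted p = 0.0236), and the call was lost without Sal–Sal pool 1, Sal–Sal pool 2 or Sal–Coc pool 2, with adjusted p-values up to 0.0865 in the edgeR fits. The Coc–Coc pools overlapped both other groups, with pool 1 above all Sal–Sal pools and pool 3 below Sal–Coc pool 3, and the log2 fold change vs. Sal–Sal was -0.29 (edgeR adjusted p = 0.222), which became -0.50 (edgeR adjusted p = 0.0426) without Coc–Coc pool 1.

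Creb1, the cAMP response element binding protein, was at 8.00, 8.21 and 9.50 CPM in Sal–Sal, at 5.16, 5.30 and 5.87 CPM in Sal–Coc and at 7.54, 8.96 and 7.02 CPM in Coc–Coc. The Sal–Coc pools were the lowest 3 of the 9. Creb1 fell in Sal–Coc vs. Sal–Sal (log2 fold change -0.66, standard error 0.13, edgeR adjusted p = 0.012), without each pool as well. In Coc–Coc vs. Sal–Coc its log2 fold change was 0.53, with an adjusted p of 0.348 from edgeR's test and 0.0455 from DESeq2.

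Atf1, a close relative of Creb1 that binds the same element, was at 34.2, 38.2 and 43.4 CPM in Sal–Sal, at 49.7, 51.8 and 54.0 CPM in Sal–Coc and at 48.2, 55.1 and 56.7 CPM in Coc–Coc. All cocaine pools lay above all saline pools, where 36.1% (Sal–Coc) and 36.7% (Coc–Coc) of all genes tested had no overlap with Sal–Sal. Atf1 rose in Sal–Coc vs. Sal–Sal (log2 fold change 0.42, edgeR adjusted p = 0.0202) and in Coc–Coc vs. Sal–Sal (log2 fold change 0.46, edgeR adjusted p = 0.0237). Both calls were lost without Sal–Sal pool 1 or Sal–Sal pool 2. The former was also lost without Sal–Coc pool 2 or 3 and the latter without Coc–Coc pool 2 or 3, with adjusted p-values up to 0.0698 and 0.092 in the edgeR fits. In Coc–Coc vs. Sal–Sal, no gene at all was called without Coc–Coc pool 3.

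**Figure D4:**
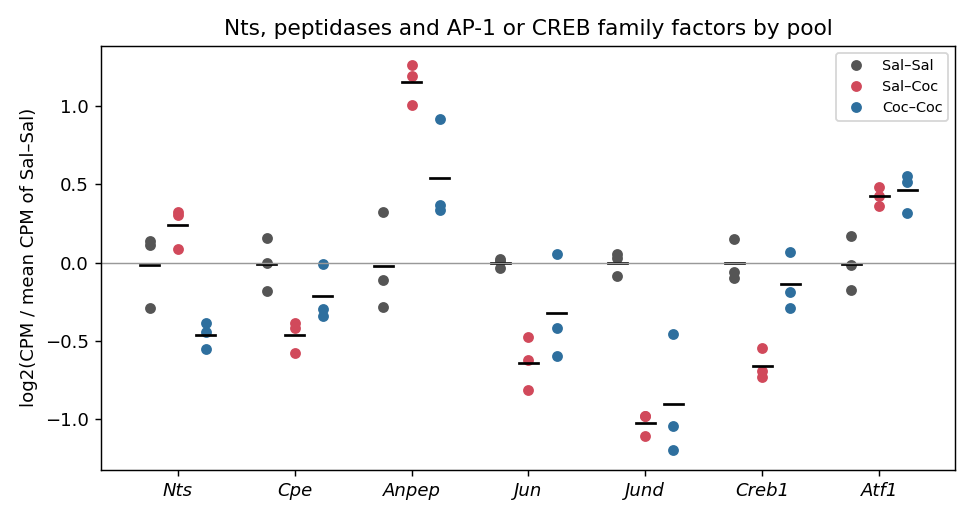
Nts and 6 genes of its lists (horizontal axis) as log2 of CPM over the mean CPM of Sal–Sal (vertical axis). Points are pools, coloured by group, and black lines are group means of the plotted values. Nts is lowest in Coc–Coc, whereas Cpe, Jun, Jund and Creb1 have their lowest group mean in Sal–Coc. For Jun and Jund the pools of Coc–Coc and Sal–Coc overlap. The order of these groups reverses for Jund without Coc–Coc pool 1 (log2 fold change -0.090 in Coc–Coc vs. Sal–Coc).

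Of 12 genes of dopamine transmission, Ddc, which encodes the enzyme that makes dopamine from L-DOPA, had an identifier. It was at 9.21, 18.6 and 11.5 CPM in the Sal–Sal pools, at 27.7, 20.7 and 20.1 CPM in Sal–Coc and at 19.98, 18.8 and 19.9 CPM in Coc–Coc. Ddc had one only because it was published as changed, so its calls are not independent evidence and nothing about the list is read from them. Ddc rose in Sal–Coc vs. Sal–Sal (log2 fold change 0.79, edgeR adjusted p = 0.0419), where 16.4% of all genes tested were called, 10.6% as higher. This call remained in 1 of the 9 fits without 1 pool, the one without Sal–Sal pool 2. It was also lost without the 2 pools that stand apart (edgeR adjusted p = 0.152). In Coc–Coc vs. Sal–Sal, where the pools did not overlap, as for 36.7% of all genes tested, its log2 fold change was 0.57 (edgeR adjusted p = 0.126). Without Sal–Sal pool 2 this fold change became 0.92 (edgeR adjusted p = 0.0311). None of the 16 other neuropeptide precursors had an identifier.

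Of the 27 genes that were published as changed in Coc–Coc vs. Sal–Coc, Nts was among 8 with the lowest mean level in Coc–Coc, and the other 19 had theirs in Sal–Coc. They share the choice of Nts and are given as levels only, with receptors and Nefm picked after their values were seen. Sstr3, a receptor of the neuropeptide somatostatin, averaged 3.31 ± 0.50 CPM (SD over 3 pools) for Sal–Sal, 3.86 ± 1.08 CPM for Sal–Coc and 1.70 ± 0.36 CPM for Coc–Coc. Adra2b, an adrenergic receptor, was at 2.93 ± 0.46, 3.77 ± 0.55 and 1.89 ± 0.63 CPM, respectively. Nefm, the medium chain of neurofilaments, was at 97.0 ± 4.73, 109.4 ± 5.12 and 66.6 ± 12.8 CPM. Of the receptors lowest in Sal–Coc, the glutamate receptor Grin2b was at 62.1 ± 8.15 CPM for Sal–Sal, 38.6 ± 6.28 CPM for Sal–Coc and 62.4 ± 9.39 CPM for Coc–Coc, and Grm3, another glutamate receptor, at 154.7 ± 24.3, 87.5 ± 2.42 and 143.0 ± 17.9 CPM.

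The genes with a pattern most like that of Nts were sought among 11313 genes with a mean of at least 5 CPM, by Pearson's r of log2(CPM + 0.1) over the 9 pools. The values are a description, since the pools share their groups, and r ran from -0.95 to 0.95. The most alike was ENSRNOG00000007508 (r = 0.95, Spearman's rho 0.90), which was at 30.3 to 32.8 CPM in Coc–Coc, 35.7 to 43.3 CPM in Sal–Sal and 41.7 to 45.5 CPM in Sal–Coc. Without the 2 pools farthest from the median of Nts, Coc–Coc pools 2 and 3, its r was 0.92. The next was ENSRNOG00000016731 (r = 0.92, rho 0.87), and the most opposite were ENSRNOG00000049052 (r = -0.95, rho -0.92) and ENSRNOG00000002094 (r = -0.95, rho -0.92), which without those pools had r of 0.92, -0.92 and -0.97, respectively. None of the 8 genes that this measure selects had a symbol.

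Among the 1222 of these genes with a symbol, a set chosen after the values were seen and made of published changed genes, Nefm was the most alike (r = 0.87, rho 0.90, and 0.80 without those 2 pools). It was followed by Bok (r = 0.80), which encodes a member of the BCL2 family, Cabp7 (r = 0.78), which encodes a calcium-binding protein, B3galt2 (r = 0.73), which encodes a galactosyltransferase, and Glra2 (r = 0.71), a glycine receptor subunit. Without those 2 pools r was 0.57 for Bok, 0.48 for Cabp7, 0.45 for B3galt2 and 0.63 for Glra2. The most opposite were AABR07042733.1 (r = -0.88), listed by the study as a cadherin 8 gene, Ubn2 (r = -0.83) and Cacna1e (r = -0.82), a subunit of R-type calcium channels, with r of -0.78, -0.79 and -0.62 without those 2 pools. Nefm, Glra2, AABR07042733.1, Ubn2 and Cacna1e were published as changed in Coc–Coc vs. Sal–Coc, the comparison by which Nts was chosen. Their r over the levels, positive or negative, therefore follows in part from that shared choice.

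When each value was taken as its deviation from the mean of its group, so that differences between groups played no part, the likeness pointed to other genes. The deviation of Nts was largest in Sal–Sal pool 3, at -0.28 on the log2 scale. Over the 11313 genes, r of the deviations ran from -0.96 to 0.97. The most alike was ENSRNOG00000006925 (r = 0.97, rho 0.93, and 0.91 without that pool). The most opposite was ENSRNOG00000011929 (r = -0.96, rho -0.90, and -0.88 without that pool). Of the 8 genes that the measure selects, Lpcat2, which encodes an enzyme of phospholipid synthesis, had a symbol, with r = -0.94 (rho -0.97) over the deviations and -0.85 without Sal–Sal pool 3. Over the levels themselves its r with Nts was -0.48. Nefm, the named gene most like Nts over the levels, had r = 0.30 over the deviations, and 0.65 without Sal–Sal pool 3.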

How the data were processed

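Polyadenylated RNA was sequenced as stranded 75-base single reads. The deposited tables, 1 per technical replicate, hold raw read counts for Ensembl genes, which the authors made by removing reads of at most 40 bases or of mean quality at most 30, aligning with STAR to Ensembl 84, dropping reads mapped more than once and counting (HTSeq 0.5.3 in the submitters' processing notes). Whether counting used strand is not given in the sources used here, so reads of overlapping antisense genes may be included.

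Technical replicates were summed per pool. Genes kept by filterByExpr (15641) were compared with edgeR 4.0.16 (R 4.3.3), with TMM normalization, a quasi-likelihood fit over all 9 pools and Benjamini-Hochberg adjustment over all genes. The standard error is the log2 fold change over the square root of F. DESeq2 1.42.0 was an alternative. Both were also run on simulated counts in which a small set of genes was changed, in Coc–Coc only. That setting differs from the data, and nothing about the calls reported here is read from it. DESeq 1.8.3, used in the study, was not run. Where nothing separates animals within a pool, p-values measure the spread between pools.

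Symbols came from published fold changes, which equal to 6 digits the ratio of mean counts of the groups after scaling by median-of-ratios size factors, where 1 identifier matched, so named genes are nearly all published changed genes. Genes named were Nts, all genes of the neurotensin lists, genes of the other lists with an adjusted p under 0.05 in any comparison, and the 5 highest and 3 lowest correlations with Nts for each measure, of which at most 2 unnamed identifiers per direction are printed. Receptors of the same published list, Nefm and the likeness among genes with a symbol were added after the values were seen. The gene, lists and tests were chosen with earlier results of these data known. Intervals cover counting error only. Of the marker lists, only Flt1 had an identifier. Lists for neurons of cortex, septum, hypothalamus and cholinergic neurons and for glia and choroid plexus had none.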

Additional observations from a re-analysis of the deposited data

How the results depend on the processing

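Nts kept its direction in all 3 comparisons under all 18 other settings and moved by less than 1 SD between pools (0.16 on the log2 scale). A replicate block on pool numbers gave log2 fold changes of 0.25 (Sal–Coc vs. Sal–Sal), -0.46 (Coc–Coc vs. Sal–Sal) and -0.70 (Coc–Coc vs. Sal–Coc). Pools with the same number are different animals, and their deviations from the group means had a mean correlation of -0.03 over 9 pairs, against 0.02 over 18 other pairs. The block ended the call of Ddc in Sal–Coc vs. Sal–Sal (edgeR adjusted p = 0.0663) and no other call of the 8 list genes with an identifier. Calls of the other named genes were not followed under the other settings. Leaving out 1 pool at a time gave 0.11 to 0.31, -0.58 to -0.38 and -0.77 to -0.66 for these comparisons. Library totals alone, without TMM factors, and the fit without Sal–Sal pool 3 and Sal–Coc pool 1 were added after seeing the data.

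The genes called in Sal–Coc vs. Sal–Sal numbered 2572, became 1445 with only the 6 pools compared and ranged from 982 to 2835 without 1 pool. In Coc–Coc vs. Sal–Sal they numbered 1702 and became 2824 with DESeq2, 1126 with the replicate block, 1057 with technical replicate a alone, 883 with library totals alone and 2948 without Sal–Sal pool 3 and Sal–Coc pool 1. They ranged from 0 to 2131 without 1 pool, the 0 being without Coc–Coc pool 3. In Coc–Coc vs. Sal–Coc they numbered 0, with 1453 at an unadjusted p under 0.05, and became 5 with no filter on low counts, 150 with DESeq2 and 3 with technical replicate a alone, with 0 to 1 without 1 pool. Of Cpe and Anpep, 2 were called in Sal–Coc vs. Sal–Sal, 1 with only the 6 pools compared, 1 with library totals alone and 0 to 2 without 1 pool. The cause was not tested. Directions reversed for 3 uncalled log2 fold changes of Coc–Coc vs. Sal–Coc without 1 pool, namely Jund (-0.090 to 0.30, reversed without Coc–Coc pool 1), Flt1 (-0.27 to 0.0025, without Coc–Coc pool 2) and Atf1 (-0.0043 to 0.12, without Coc–Coc pool 3). A lone pool was not left in any group.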
